A study of Mus musculus with 6 samples.

Results

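The excitation-contraction coupling machinery of the triad was described here by 10 genes, a list of named components matched by mouse gene symbol to the Ensembl identifiers of the gene tables, and all 10 were found among the 53947 genes listed. The data were total RNA libraries, depleted of ribosomal RNA, made from quadriceps muscle at 12 weeks of age, with 3 libraries from HSALR mice and 3 from WT mice. HSALR mice carry a transgene of human skeletal actin with 220 CTG repeats, which expresses expanded CUG repeats in skeletal muscle. There that RNA captures the MBNL proteins, regulators of splicing, and the mice are used to model myotonic dystrophy type 1. WT mice carry no such transgene. The actin promoter limits the model to muscle fibres, so other cells of the muscle do not make the repeat RNA. Libraries are numbered within each group, but no label ties a number to a separate animal, and p-values therefore reflect the variation among these libraries only, which may be technical. The comparison asked how the transcripts of the coupling machinery differ between muscle with sequestered MBNL proteins and WT muscle.

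In a skeletal muscle fibre the triad is the site where a T-tubule, an inward fold of the surface membrane, lies between the terminal cisternae of the sarcoplasmic reticulum. A depolarisation moves the voltage sensor in the T-tubule, the L-type calcium channel CaV1.1, which opens the calcium release channel RYR1 in the facing membrane by direct mechanical coupling. Junctophilins hold both membranes together, and STAC3 is needed for the sensor to reach the membrane and to couple to RYR1.

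Some of these genes are spliced in ways that gene tables cannot separate, and the exons concerned are shown so that the pooled values can be read with them in mind. Each line gives an exon in capitals between 30 intronic bases on either side in lower case, read from GRCm39 and written 5′ to 3′ along the gene. The first is a 57-base exon of Cacna1s at chr1:136032308-136032364 on the plus strand, which lies in the stretch between segments S3 and S4 of the fourth repeat and whose skipping in myotonic dystrophy muscle is known. The others are the 15-base exon of Ryr1 at chr7:28755659-28755673 and the 18-base exon at chr7:28744344-28744361, both on the minus strand, the alternative segments whose inclusion changes in muscle development.
Cacna1s 57-base exon: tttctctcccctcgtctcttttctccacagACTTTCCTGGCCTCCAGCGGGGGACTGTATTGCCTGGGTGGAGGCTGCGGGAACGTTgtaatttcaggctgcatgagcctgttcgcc
Ryr1 15-base exon: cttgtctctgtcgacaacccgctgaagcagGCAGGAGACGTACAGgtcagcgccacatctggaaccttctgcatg
Ryr1 18-base exon: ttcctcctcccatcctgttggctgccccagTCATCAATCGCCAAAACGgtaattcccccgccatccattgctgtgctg
Only the transcripts that the gene tables list were looked up in the GENCODE M39 annotation. Among these, the Cacna1s exon was held by 2 of the 4 coding transcripts of more than 10 exons. Both Ryr1 exons were held by 2 of 2 such transcripts. Annotated forms outside the gene tables were not looked at. Each value below is a sum over all forms of a gene, and inclusion of these exons was not measured here.

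Transcript levels are given as TPM (transcripts scaled to a fixed total per library), which is scaled by transcript length and can be compared between genes, and as CPM (counts scaled to the TMM-adjusted library size), which is compared between groups. The libraries held 11468959 to 13220792 counts in HSALR muscle and 14048603 to 15023710 counts in WT muscle. The noncoding RNAs 7SL and 7SK took 18.9% to 44.0% of the counts in HSALR libraries, with the highest share in HSALR library 1, and 14.2% to 15.5% in WT libraries. TPM counts these RNAs within its fixed total. The median log2 fold change of all tested genes was -0.46 on log2(TPM + 0.1) and 0.04 in the reported fit of counts. TPM values below therefore show levels, and log2 fold changes are those of counts unless TPM is named. Summed CPM of 8 muscle fibre markers ranged from 78091 to 160638 in HSALR libraries and from 214670 to 245823 in WT libraries, without overlap. Of these markers 0 passed the edgeR test, with log2 fold changes from -0.09 for Mylpf to -1.29 for Ttn. Of 5 macrophage markers, 3 rose, where 4.28% of all tested genes rose. The summed CPM of the macrophage markers ranged from 87.9 to 244.2 in HSALR libraries and from 56.7 to 70.7 in WT libraries. Summed CPM of 3 fibroadipogenic progenitor markers was 2443, 689 and 1015 in HSALR libraries and 681 to 759 in WT libraries, and 0 of them passed. Summed CPM of 4 slow fibre markers ranged from 82.6 to 670.2 in HSALR libraries and from 34.9 to 900.3 in WT libraries, with WT library 2 at the top. Of 4 markers of regenerating or immature fibres, 3 were tested and 1 rose, Myh8, and their summed CPM overlapped between groups. Summed CPM of 2 satellite cell markers was 2.48 to 3.14 in HSALR and 1.19 to 1.32 in WT libraries, and 0 passed. Endothelial, adipocyte, smooth muscle, Schwann cell, tendon and cardiac markers overlapped in summed CPM, and 0 passed. The part of these differences in the results on the triad was not tested.

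Of the 10 genes, 2 fell in HSALR muscle, namely Ryr1 and Cacna2d1, and 0 rose. At an unadjusted p below 0.05 in edgeR 1 was higher, Cacng1, and DESeq2 and limma-voom called 0 higher. Over all 13576 tested genes 7.48% fell and 4.28% rose under edgeR's quasi-likelihood test with Benjamini-Hochberg adjustment over all tested genes. The CPM of HSALR and WT libraries did not overlap for 5 of the 10 genes, all lower in HSALR, namely Cacna1s, Cacna2d1, Ryr1, Jph1 and Jph2, where 20.0% of all tested genes were lower and 17.8% higher without overlap. The median log2 fold change was -0.46 for the 10 genes, -0.43 for the 8 muscle fibre markers and 0.04 for all tested genes. In whole muscle, fewer fibres and less RNA per fibre cannot be told apart.

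**Figure D1:**
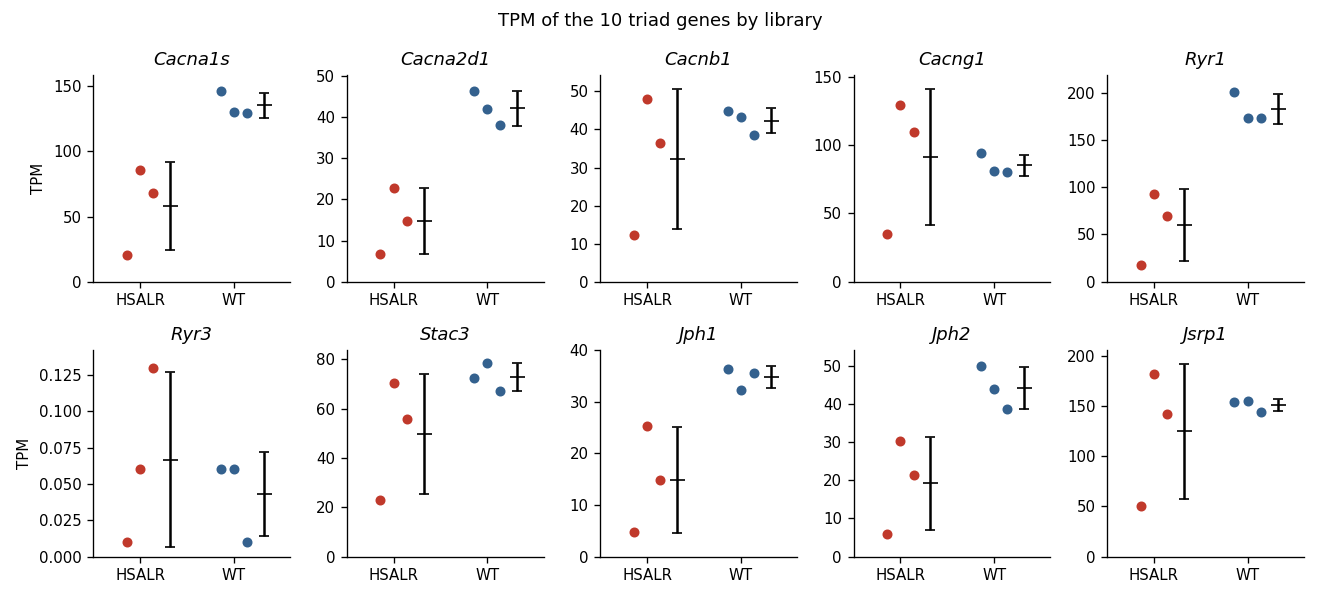
TPM (vertical axis, each panel from 0 on its own scale) of the 10 triad genes in the HSALR and WT libraries; points are libraries 1 to 3 from left to right, and the black mark with its bar is the mean with SD. The HSALR points of Cacna1s, Cacna2d1, Ryr1, Jph1 and Jph2 lie below all WT points, and those of Cacng1, Cacnb1, Stac3, Jsrp1 and Ryr3 do not.

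The voltage sensor was described first. Cacna1s, on chromosome 1 (plus strand, GRCm39 135980259 to 136047560), encodes the pore-forming subunit of CaV1.1 and had 20.3, 85.8 and 68.3 TPM in HSALR libraries, against 146.2, 130.0 and 129.6 TPM in WT libraries. Every HSALR library lay below every WT library, with HSALR library 1 lowest. On the CPM scale the gene averaged 567 ± 215 in HSALR muscle and 999 ± 84.7 in WT muscle (SD, n = 3 each). The log2 fold change was -0.82 ± 0.27 (SE) and did not pass the edgeR test (adjusted p = 0.0774). Cacna1s passed as lower in 4 of 20 alternative settings, and its log2 fold change was negative in all 20. With the share of 7SL and 7SK as a covariate it was -0.25 (edgeR, adjusted p = 0.322).

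Cacna2d1, on chromosome 5 (plus strand, 16139372 to 16579509), encodes the extracellular α2δ subunit that promotes the surface trafficking of calcium channels. Cacna2d1 had 6.69, 22.7 and 14.8 TPM in HSALR libraries, against 46.4, 42.1 and 38.0 TPM in WT libraries. The groups were apart in all libraries. In CPM the gene averaged 157 ± 48.3 in HSALR muscle and 335 ± 28.0 in WT muscle (SD, n = 3 each), and it fell by 1.09 ± 0.22 (SE) on the log2 scale (edgeR, adjusted p = 0.018). This is a fold of 0.469 in HSALR over WT. The call was kept in 14 of 20 alternative settings, and the log2 fold change was negative in all 20. The call was lost when HSALR library 3 or any WT library was left out (edgeR, adjusted p = 0.0736 to 0.1). It was also lost on log2(TPM + 0.1) and on log2(TPM + 1) (limma, adjusted p = 0.0714 and 0.0525).

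Cacnb1, on chromosome 11 (minus strand, 97892204 to 97913860), encodes the cytoplasmic β1 subunit. Cacnb1 had 12.2, 48.1 and 36.4 TPM in HSALR libraries, against 44.9, 43.4 and 38.6 TPM in WT libraries, and the groups overlapped. The log2 fold change of its counts was -0.03 ± 0.22 (SE; edgeR, adjusted p = 0.947). Cacng1, also on chromosome 11 (minus strand, 107591493 to 107607408), encodes the γ1 subunit, which restrains the channel's calcium current. Cacng1 had 35.3, 129.2 and 109.8 TPM in HSALR libraries, against 94.3, 80.9 and 80.6 TPM in WT libraries. HSALR libraries 2 and 3 lay above all WT libraries and HSALR library 1 below them on this scale. In CPM it had 149, 264 and 243 in HSALR libraries, against 171, 139 and 153 in WT libraries, and its log2 fold change of 0.50 ± 0.21 (SE) did not pass the test (edgeR, adjusted p = 0.141). Without HSALR library 1 the log2 fold change was 0.73 and the adjusted p was 0.00569.

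Stac3, on chromosome 10 (plus strand, 127337542 to 127344696), encodes the adaptor that brings CaV1.1 to the surface. Stac3 had 23.0, 70.3 and 55.9 TPM in HSALR libraries, against 72.6, 78.5 and 67.2 TPM in WT libraries. HSALR library 2 lay within the WT range, so the groups overlapped, and the log2 fold change of the counts was -0.10 ± 0.18 (SE; edgeR, adjusted p = 0.724). Jsrp1, on the same chromosome (minus strand, 80643923 to 80649470), encodes JP45, a protein of the junctional reticulum that binds the sensor and calsequestrin. Jsrp1 had 50.7, 181.9 and 141.7 TPM in HSALR libraries, against 154.2, 155.0 and 143.6 TPM in WT libraries. HSALR library 2 had the highest level and HSALR library 1 the lowest. Its counts had a log2 fold change of 0.16 ± 0.19 (SE; edgeR, adjusted p = 0.603).

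The release channels differed in level by far. Ryr1, on chromosome 7 (minus strand, 28702769 to 28824604), encodes the channel that CaV1.1 opens and had 17.7, 92.8 and 69.1 TPM in HSALR libraries, against 200.5, 173.2 and 173.5 TPM in WT libraries. The groups were apart, with HSALR library 1 far below HSALR libraries 2 and 3. In CPM Ryr1 averaged 1844 ± 782 in HSALR muscle and 4453 ± 464 in WT muscle (SD, n = 3 each), and fell by 1.27 ± 0.32 (SE) on the log2 scale (edgeR, adjusted p = 0.0362), a fold of 0.414. The call held in 11 of 20 alternatives, with a negative log2 fold change in all 20. With the share of 7SL and 7SK as a covariate the log2 fold change was -0.62 (edgeR, adjusted p = 0.0285). On log2(TPM + 0.1) it was -1.91 and did not pass (limma, adjusted p = 0.0682), where the median of all tested genes was -0.46. The call was lost, among others, when the trend with transcript length was removed (log2 fold change -1.02, adjusted p = 0.0737) and when HSALR library 3 or any WT library was left out (adjusted p = 0.107 to 0.144).

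Ryr3, on chromosome 2 (minus strand, 112461699 to 113047441), encodes the ryanodine receptor of developing and some specialised muscles. It was barely present, at 0.01, 0.06 and 0.13 TPM in HSALR libraries, against 0.06, 0.06 and 0.01 TPM in WT libraries. These rest on 5, 21 and 25 counts in HSALR libraries and 20, 12 and 2 in WT libraries, near the floor of 3 counts. The groups overlapped and the log2 fold change was 0.72 ± 0.71 (SE; edgeR, adjusted p = 0.515). The genes on the opposite strand, Aven and Tmco5b, overlap Ryr3 and together held up to 139 counts in a library, and no source used here states whether strand was used in counting.

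The junctophilins span the gap between both membranes. Jph1, on chromosome 1 (minus strand, 17012318 to 17168113), had 4.7, 25.2 and 14.8 TPM in HSALR libraries, against 36.3, 32.3 and 35.6 TPM in WT libraries. Jph2, on chromosome 2 (minus strand, 163178162 to 163239920), the form shared with heart, had 5.97, 30.2 and 21.3 TPM in HSALR libraries, against 49.8, 43.9 and 38.7 TPM in WT libraries. Neither gene had an HSALR library within the WT range. In CPM Jph1 averaged 127 ± 49.3 in HSALR muscle and 246 ± 23.3 in WT muscle (SD, n = 3 each). Jph2 averaged 166 ± 68.5 CPM in HSALR muscle and 297 ± 34.2 CPM in WT muscle (SD, n = 3 each). The log2 fold change was -0.95 ± 0.26 (SE) for Jph1 (edgeR, adjusted p = 0.0522) and -0.84 ± 0.29 (SE) for Jph2 (edgeR, adjusted p = 0.0953), and neither passed the test. With the share of 7SL and 7SK as a covariate the log2 fold change was -0.41 for Jph1 and -0.21 for Jph2 (edgeR, adjusted p = 0.155 and 0.422). With HSALR library 1 left out, both passed, at log2 fold changes of -0.69 and -0.55 (edgeR, adjusted p = 0.0181 and 0.0373).

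**Figure D2:**
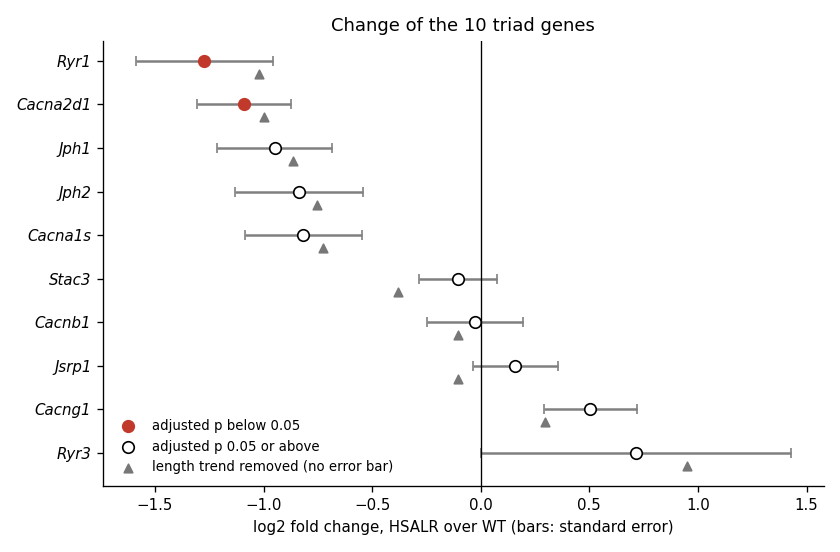
Log2 fold change of HSALR over WT (horizontal axis) for the 10 triad genes, ordered from the most negative at the top; circles with bars are the edgeR estimate ± SE, filled where the adjusted p was below 0.05, and grey triangles are the estimates after the trend with transcript length was removed. Ryr1 (-1.27) and Cacna2d1 (-1.09) are the filled circles.

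By mean TPM in HSALR muscle the order was Jsrp1 (124.8), Cacng1 (91.4), Ryr1 (59.8), Cacna1s (58.1), Stac3 (49.7), Cacnb1 (32.2), Jph2 (19.1), Jph1 (14.9), Cacna2d1 (14.7) and Ryr3 (0.067). In WT muscle it was Ryr1 (182.4), Jsrp1 (150.9), Cacna1s (135.2), Cacng1 (85.3), Stac3 (72.7), Jph2 (44.2), Cacnb1 (42.3), Cacna2d1 (42.2), Jph1 (34.7) and Ryr3 (0.043). Among neighbours in the HSALR order, the ranges over libraries were apart for Cacna2d1 over Ryr3 alone. Within a library, most genes lay above the next in all 3 HSALR libraries. The exceptions were Ryr1 over Cacna1s and Cacna1s over Stac3, in 2 of 3, and Jph1 over Cacna2d1, in 1 of 3. In the WT order the ranges overlapped for Jsrp1 with Cacna1s, Jph2 with Cacnb1, and Cacnb1 with Cacna2d1, and the other neighbours were apart. Within a library, each gene lay above the next in all 3 WT libraries, except Cacnb1 over Cacna2d1, in 2 of 3. By mean TPM Ryr1 stood below Jsrp1 and Cacng1 in HSALR muscle and above all the others in WT muscle.

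In a ratio of TPM within a library, library size and the share of 7SL and 7SK cancel as scale factors. Any difference between the genes of a pair that goes with this share stays in the ratio. The ratio of Cacng1 to Cacna1s was 1.74, 1.51 and 1.61 in HSALR libraries, against 0.645, 0.622 and 0.622 in WT libraries, a fold of 2.56. The ratio of Jsrp1 to Cacna1s was 2.49, 2.12 and 2.08 in HSALR libraries, against 1.06, 1.19 and 1.11 in WT libraries, a fold of 1.99. That of Cacnb1 to Cacna1s was 0.602, 0.561 and 0.532 in HSALR libraries, against 0.307, 0.334 and 0.298 in WT libraries. HSALR library 1, which was lowest in most single genes, had the highest value in each of these 3 ratios, and all 3 HSALR libraries lay above all WT libraries.

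The ratio of Stac3 to Cacna1s averaged 0.923 ± 0.181 in HSALR muscle and 0.540 ± 0.0566 in WT muscle, and that of Cacna1s to Ryr1 averaged 1.02 ± 0.117 in HSALR muscle and 0.742 ± 0.0115 in WT muscle (SD, n = 3 each). The values of both groups did not overlap for 6 of the 8 pairs, each with the smallest p that 3 against 3 allow (two-sided exact permutation test, p = 0.1, adjusted over the 8 pairs 0.133), so no pair could pass 0.05. The sixth was Ryr3 to Ryr1, which rests on the few Ryr3 counts above. The overlapping pairs were Cacna2d1 to Cacna1s, with means of 0.270 ± 0.0564 in HSALR muscle and 0.311 ± 0.0158 in WT muscle, and Jph2 to Jph1, with 1.3 ± 0.126 in HSALR muscle and 1.27 ± 0.161 in WT muscle (SD, n = 3 each). Separation of such ratios was common: 60.7% of all tested genes with TPM above 0 in every library had a ratio to Cacna1s that did not overlap between groups, 80.0% a ratio to Ryr1 and 50.4% a ratio to Jph1. Against these shares the separation of the pairs cannot be read as a property of the triad genes.

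**Figure D3:**
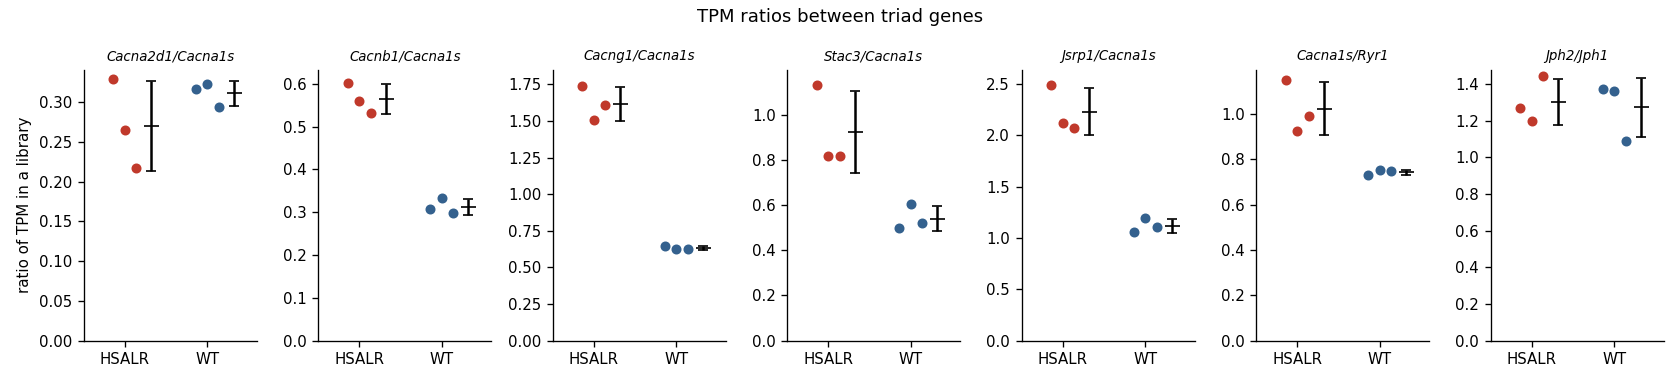
Ratio of TPM within a library (vertical axis, each panel from 0) for 7 pairs of triad genes in the HSALR and WT libraries; points are libraries, and the black mark with its bar is the mean with SD. The HSALR points of Cacng1 to Cacna1s lie at 1.51 to 1.74 and the WT points at 0.622 to 0.645, while Jph2 to Jph1 overlaps.

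The genes with the most negative values have long transcripts, and fold changes over all genes followed transcript length. Among protein coding genes in 8 classes of equal size by length, the median log2 fold change was 0.31 in the shortest class and -0.18 in the longest, of 4571 bases or more, where 19.6% of genes fell. Cacna1s, Cacna2d1, Ryr1 and Ryr3 belong to the longest class, and Cacng1, Stac3 and Jsrp1 have transcripts averaging 932 to 1249 bases. With a smooth trend of fold change on length removed, 5.58% of all tested genes fell and Cacna2d1 alone of the 10 did, at -0.996 on the log2 scale (edgeR, adjusted p = 0.0412). The trend at the length of Ryr1 was -0.26, and at that of Cacng1 it was 0.20. For Cacna1s, Cacna2d1, Jph1 and Jph2 the trend was -0.072, -0.079, -0.065 and -0.062. Their log2 fold changes were -0.82, -1.09, -0.95 and -0.84. For Ryr3 the trend was -0.23, and for Cacnb1, Stac3 and Jsrp1 it was 0.076, 0.28 and 0.27. After removal of the trend the log2 difference in the Cacng1 to Cacna1s ratio was 1.02, against 1.36 from TPM.

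**Figure D4:**
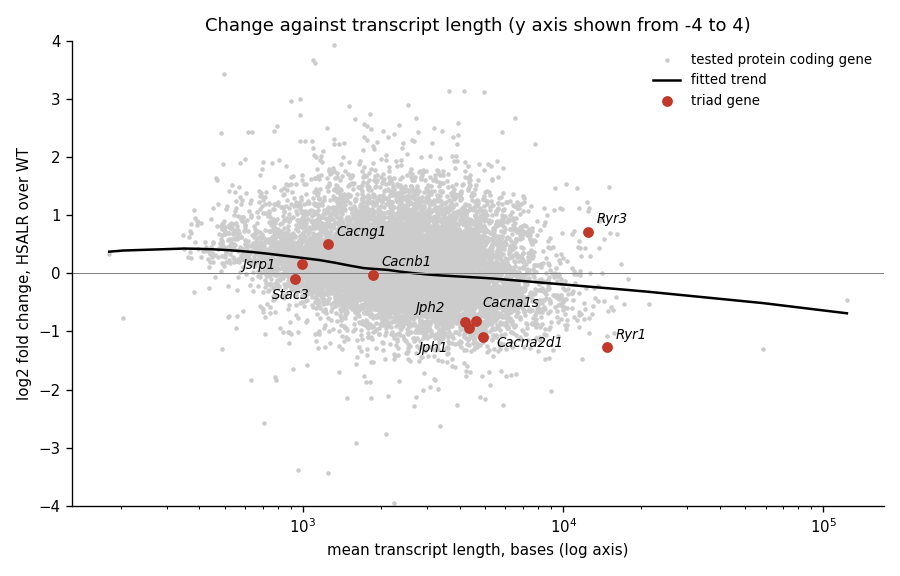
Log2 fold change of HSALR over WT (vertical axis) against mean transcript length in bases (horizontal log axis) for tested protein coding genes in grey, with the fitted trend in black and the 10 triad genes in red; 10 genes beyond 4 on the vertical axis are not shown. Ryr3 (0.72) and Cacng1 (0.50) lie above the trend, and the other triad genes lie below it, from Ryr1 (-1.27) and Cacna2d1 (-1.09) to Jsrp1 (0.16).

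The mean transcript length of a gene, weighted by the estimated abundance of its forms, is a second readout of the tables. The lengths of HSALR and WT libraries did not overlap for Cacnb1 alone of the 9 members whose length varied, where 12.8% of the 11309 tested genes of varying length did not overlap. Cacnb1 had 1829, 1870 and 1826 bases in HSALR libraries, against 1878, 1902 and 1875 bases in WT libraries, a difference of -43.1 bases or -2.29% (two-sided exact permutation test, p = 0.1, the smallest possible). All 3 HSALR libraries were shorter than all WT libraries. Cacna1s averaged 4613 ± 234 bases in HSALR muscle and 4599 ± 28.1 in WT muscle, and Ryr1 14619 ± 153 bases in HSALR muscle and 14812 ± 121 in WT muscle (SD, n = 3 each), both with overlap. Cacng1 has 1 transcript and a fixed length of 1249 bases.

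Promoter sequence was compared for the genes that the RefSeq table on GRCm38.p6 holds, which were Cacna1s, Cacna2d1, Ryr1, Cacnb1 and Jph2. The 250 bases before the start site are shown for the pore subunit and for both genes that fell, with each E-box, the motif CANNTG bound by myogenic factors such as MYOD, in capitals. They lie at chr1:136052561-136052810 on the plus strand, chr5:15934441-15934690 on the plus strand and chr7:29125152-29125401 on the minus strand.
Cacna1s promoter: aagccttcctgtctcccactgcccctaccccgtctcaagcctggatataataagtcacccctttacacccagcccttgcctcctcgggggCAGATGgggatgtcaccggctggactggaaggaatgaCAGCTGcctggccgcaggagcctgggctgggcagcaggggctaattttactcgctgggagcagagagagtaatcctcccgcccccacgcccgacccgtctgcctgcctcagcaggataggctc
Cacna2d1 promoter: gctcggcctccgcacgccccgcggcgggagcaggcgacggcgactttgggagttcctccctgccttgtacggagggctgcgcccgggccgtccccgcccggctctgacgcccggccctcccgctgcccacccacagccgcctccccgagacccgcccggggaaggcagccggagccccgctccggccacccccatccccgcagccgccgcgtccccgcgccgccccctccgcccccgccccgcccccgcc
Ryr1 promoter: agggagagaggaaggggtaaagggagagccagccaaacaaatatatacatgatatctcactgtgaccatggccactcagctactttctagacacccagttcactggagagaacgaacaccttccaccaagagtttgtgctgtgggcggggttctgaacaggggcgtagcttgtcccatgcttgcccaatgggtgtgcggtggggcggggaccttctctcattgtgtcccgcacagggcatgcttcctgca
CANNTG, read on both strands, occurred 2 times in the Cacna1s window and 0 times in those of Cacna2d1 and Ryr1. It occurred 1 time before each of the 2 start sites of Jph2, and before 1 of the 2 start sites of Cacnb1, while 66.2% of 32851 windows of this length hold it. Its form CAGCTG, which CANNTG includes, occurred once before Cacna1s, once in each Jph2 window and 0 times before Cacnb1, and is held by 13.0% of windows. A match describes the letters and not a bound site.

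Partners of the machinery were taken from lists of 45 genes, of which 32 could be tested: 4 fell, 1 rose and 27 did not pass, with a median log2 fold change of -0.17, where 7.48% of all tested genes fell and 4.28% rose. Among 16 genes of the junctional reticulum, 15 were tested and 3 fell, beside the same 7.48% of all tested genes. Trdn encodes triadin, which anchors calsequestrin to RYR1, and had 168, 347 and 230 CPM in HSALR libraries, against 505, 427 and 474 CPM in WT libraries. It fell by 0.92 ± 0.25 (SE) on the log2 scale (edgeR, adjusted p = 0.0447). Fkbp1a encodes FKBP12, the protein that stabilises the closed release channel, and had 26.4, 24.6 and 26.7 CPM in HSALR libraries, against 34.4, 37.1 and 34.0 CPM in WT libraries. It fell by 0.44 ± 0.12 (SE) on the log2 scale (edgeR, adjusted p = 0.0447), and its HSALR libraries lay close together, HSALR library 1 included. HSALR and WT libraries did not overlap for either gene. The calls held in 9 of 20 alternatives for Trdn and 8 of 20 for Fkbp1a, and both were lost with upper-quartile size factors, the effective length offset or the share covariate (edgeR, adjusted p = 0.0547 to 0.143). Of the 4 partners that fell, 0 passed without HSALR library 3 or without any one WT library.

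Among 12 genes of the T-tubule and of channel regulation, 11 were tested, 1 fell and 1 rose, beside 7.48% and 4.28% of all tested genes. Speg, a kinase of the triad that phosphorylates junctophilin 2 in mouse heart, had 88.6, 170 and 151 CPM in HSALR libraries, against 290, 254 and 288 CPM in WT libraries, and fell by 1.02 ± 0.23 (SE) on the log2 scale (edgeR, adjusted p = 0.0258). The Speg call held in 12 of 20 alternatives and was lost with the effective length offset (-0.67, adjusted p = 0.145) and with the length trend removed (-0.89, adjusted p = 0.0641). Rrad, a small GTPase that inhibits L-type calcium channels through the β subunit, had 10.2, 20.1 and 16.8 CPM in HSALR libraries, against 2.48, 2.85 and 1.04 CPM in WT libraries. Each HSALR library lay above each WT library. Rrad rose by 2.87 ± 0.38 (SE) on the log2 scale, a fold of 7.34 (edgeR, adjusted p = 0.00645), and passed in all 20 alternatives. Of the 17 paralogs of the members, 6 were tested and 0 passed under edgeR, with 0 at an unadjusted p below 0.05 and 0 called by DESeq2 or limma-voom. The 3 with the lowest p were Cacng6 (-0.34 ± 0.25), Cacna2d2 (-0.85 ± 0.77) and Cacnb3 (0.49 ± 0.49), as log2 fold change ± SE (edgeR, adjusted p = 0.389, 0.466 and 0.521).

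**Figure D5:**
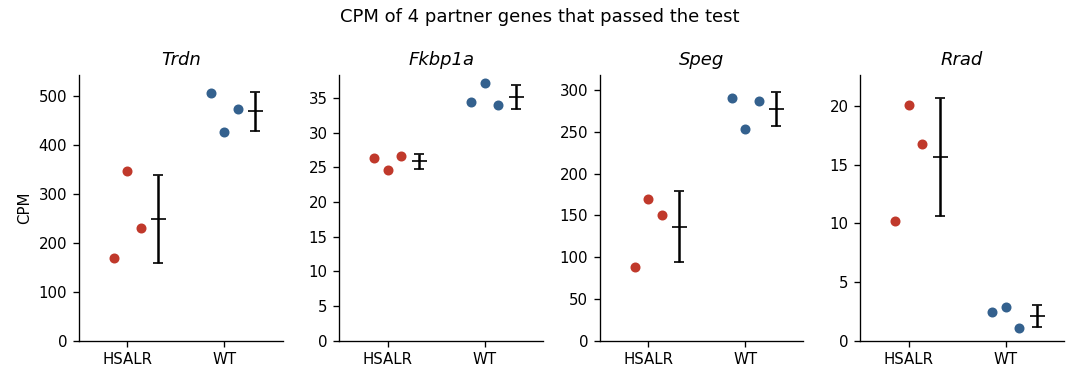
CPM (vertical axis, each panel from 0) of 4 partner genes that passed the test, in the HSALR and WT libraries; points are libraries, and the black mark with its bar is the mean with SD. Trdn, Fkbp1a and Speg are lower in every HSALR library than in every WT library, and Rrad is higher, at 10.2 to 20.1 CPM in HSALR libraries and 1.04 to 2.85 CPM in WT libraries.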

How the data were processed

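The 3 HSALR and 3 WT libraries of quadriceps total RNA were analysed. Bowtie2, RSEM 1.3.1 and the GRCm39 build are credited to the submitters' processing notes. No source used here gives the annotation release. For each gene the authors deposited an expected count, a TPM value, and a transcript length and effective length in bases. Expected counts of the 10 genes were whole within 0.005 in all 60 values, and all expected counts were rounded to whole numbers. Genes were filtered with filterByExpr, scaled with TMM and tested in edgeR 4.0.16 (R 4.3.3) with the robust quasi-likelihood test, by group only, with Benjamini-Hochberg adjustment over 13576 genes and a threshold of 0.05. Standard errors were obtained from the log2 fold change and its F statistic. TPM ratios and lengths were compared by exact permutation tests (SciPy, two-sided). Alternatives used DESeq2 1.42.0, limma 3.58.1, other size factors, filters and length corrections, a share covariate, and fits leaving out libraries. The fit was tested on simulated data. Genes of the lists named here were all 10 members, up to 5 called partners per list with the lowest p, or the 3 with the lowest p where none was called. 1 partner gene that passed the test is counted in its list but not reported here. The members and lists were chosen with earlier results of these data known. Replicate counts differed beyond sampling noise, the lowest chi-square per degree of freedom being 9.64. Precision rests on counts of 2 to 69334 per gene and library, and counting error is only part of the spread.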

Additional observations from a re-analysis of the deposited data

How the results depend on the processing

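The number of the 10 genes that fell, 2, was 5 under DESeq2, 4 with no filter, 0 on log2(TPM + 0.1) and on log2(TPM + 1) with limma, and 1 each with an effective length offset or with the length trend removed. Leaving out 1 library gave 0 to 5, with 5 without HSALR library 1 or 2 and 0 without HSALR library 3 or any WT library. The number that rose, 0, was 2 with the 7SL and 7SK share as covariate (Cacng1 and Jsrp1), 0 to 1 with 1 library left out, and 1 with HSALR library 1 and WT library 2 left out together, a choice made after seeing the data. Partner genes that fell, 4, were 0 on either log2 TPM scale and with the effective length offset, 2 each with upper-quartile size factors, the share covariate and both libraries left out, and 0 to 11 with 1 library left out. Partner genes that rose, 1, were 2 under DESeq2, upper-quartile size factors and no filter, 3 with the share covariate, and 1 to 3 with 1 library left out. Members whose length did not overlap, 1, were 1 to 4 with 1 library left out. Both TPM scales shift the median of all genes, by -0.46 and -0.28, and they count 7SL and 7SK within each library's total. Calls over all genes moved as well: 1597 genes passed in the reported fit, 2428 under DESeq2, 1980 with no filter, 133 and 211 on the TPM scales, 742 with the effective length offset, 1084 with the length trend removed, 935 with the share covariate, 2003 and 3294 without HSALR library 1 or 2, 185 without HSALR library 3, and 166 to 217 without a WT library. The cause of these differences was not tested.

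Log2 fold changes changed sign for genes that were not called in the reported fit. Cacnb1 was 0.032 with upper-quartile size factors, 0.45 with the share covariate, 0.19 with both libraries left out, and -0.27 to 0.21 over single libraries left out. Cacng1 was -0.099 and -0.095 on the TPM scales. Stac3 was 0.24 with the covariate, 0.065 with both libraries left out and -0.31 to 0.065 over single libraries left out. Jsrp1 was -0.46 on both TPM scales, -0.11 with the length trend removed and -0.027 to 0.35 over single libraries left out. Cacng6 was 0.13 with the covariate, and Cacnb3 was -0.11 and -0.026 on the TPM scales and -0.044 with the covariate. No value printed in this paragraph passed the test. In other settings Cacng1 passed as higher in 3 of 20, Jsrp1 as higher in 1 and Cacng6 as lower in 1.

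With the replicate number as a block, 1 of the 10 genes fell (Cacna2d1), and 2 partners fell and 1 rose. Deviations of same-numbered libraries correlated at 0.000517, -0.0949 and 0.228, and those of differently numbered libraries at -0.168 to 0.16. With 3 libraries per group these values cannot decide whether the numbers pair the libraries, and no label states a pairing. Over all genes 799 passed with the block.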
